A study of Saccharomyces cerevisiae with 24 samples.

Results

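Transcript levels of the genes that make ergosterol were followed in *S. cerevisiae* after a 30 s exposure to a UV laser. Members were chosen by name from the pathway, and all 31 of them were present among the 6427 genes of the tables. They are the enzymes from acetyl-CoA to ergosterol, the electron donors NCP1 and CYB5, the transcription factors *UPC2*, *ECM22* and *SUT1*, and the acyltransferases *ARE1* and *ARE2*. From 3 cultures of the haploid strain BY4741 (MATa his3Δ1 leu2Δ0 met15Δ0 ura3Δ0), grown in YEPD and suspended in PBS, a Control and a Laser portion each were taken. The Control portion was not irradiated and stayed on ice, and the Laser portion received the light in small tubes held in a cold block and was then recombined. Both were transferred to fresh warm YEPD and gave RNA at 0, 15, 30 and 60 min (T0, T15, T30 and T60), which makes 8 groups of 3 libraries. The light and the handling that came with it cannot be told apart, and the harvest of each sample took several minutes.

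Ergosterol is the main sterol of fungal membranes. Its synthesis starts with the mevalonate steps, which also feed ubiquinone, dolichol and prenylated proteins, and continues from squalene through lanosterol. The late steps need molecular oxygen, and several of their enzymes hold heme or iron. In yeast the factors Upc2 and Ecm22 bind the sterol response element before many *ERG* genes and raise transcription when sterols are low, while surplus sterol is stored as esters by Are1 and Are2.

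The 24 libraries held 2579000 to 5368000 reads, with a median of 3812000, and the members took from 29 reads for *UPC2* to 4516 reads for *ERG3* in a library. Values are RPKM, reads per kilobase of gene scaled to the mapped reads of the library, so that levels of different genes may be compared. *STE2*, the α-factor receptor of MATa cells, had at least 202 RPKM in every library, while *MATALPHA1* of the other mating type lay at the lowest value, 0.021, in 23 of 24. The deleted *LEU2* and *URA3* lay at 0.021 in all 24 libraries, and *HIS3*, deleted only in part in this strain, had 106 to 168 RPKM. In these bulk libraries a lower level in every cell and a loss of the transcript from some of the cells cannot be told apart.

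The promoters of the members were searched for the sterol response element, TCGTATA, on both strands of the 500 bases before the start codon in the R64 build. It was found in 9 of the 31 members, *ERG1*, *ERG2*, *ERG3*, *ERG6*, *ERG8*, *ERG13*, *ERG25*, *ERG28* and *CYB5*, and in 420 of the 6006 genes searched (6.99%). *ERG3*, *ERG13* and *ERG25* held the element in 2 places each. The binding site of the heme-responsive factor Hap1, searched the same way, was in none of the 31 members and in 21 of 6006 genes (0.35%). A match is a description of the letters, and its absence says only that these letters are not in the window. Of the members that hold it, the stretches of 5 are given, 3 that were highest in Laser at T60 (*ERG2*, *ERG3* and *ERG25*) and *ERG1* and *CYB5*, whose Laser values lay below Control at T15. They are written 5′ to 3′ on the strand of the gene, with the element in capitals. They lie before *ERG1* at chrVII:848769-848835 (minus strand), *ERG2* at chrXIII:667322-667388 (plus), *ERG3* at chrXII:253505-253611 (plus), *ERG25* at chrVII:610064-610137 (plus) and *CYB5* at chrXIV:417541-417607 (minus).
ERG1: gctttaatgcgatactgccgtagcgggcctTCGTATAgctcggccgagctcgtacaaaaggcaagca
ERG2: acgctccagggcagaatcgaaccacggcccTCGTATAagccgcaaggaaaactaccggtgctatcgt
ERG3: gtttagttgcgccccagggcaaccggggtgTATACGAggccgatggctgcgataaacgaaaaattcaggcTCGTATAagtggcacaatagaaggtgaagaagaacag
ERG25: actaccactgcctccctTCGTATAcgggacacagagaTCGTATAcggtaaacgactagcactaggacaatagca
CYB5: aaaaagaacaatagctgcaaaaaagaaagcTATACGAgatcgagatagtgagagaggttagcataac
In *ERG1*, *ERG2* and *ERG25* the element reads along the strand of the gene, in *CYB5* it reads on the other strand (TATACGA), and *ERG3* has a copy on each. Among these 5 the distance to the start codon ran from 185 bases for the first letter of the element in *ERG2* to 483 bases in *ERG25*.

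At T0 the Control cells carried the transcripts at levels from 501 ± 52.0 RPKM (SD, n = 3) for *ERG1*, the squalene epoxidase, to 9.48 ± 1.32 for *UPC2*. The farnesyl diphosphate synthase gene *ERG20* (446 ± 52.3), the sterol methyltransferase gene *ERG6* (405 ± 34.9) and the methylsterol oxidase gene *ERG25* (367 ± 47.4) followed *ERG1*. At the lower end stood *ERG29* (29.4 ± 4.08), *HMG2* (23.2 ± 9.13) and *ECM22* (19.8 ± 6.64). By T60 in Laser cells the order had changed at the top, where *ERG3* (732 ± 222), *ERG25* (714 ± 234) and *ERG2* (688 ± 191) led with overlapping spreads. Each of these 3 genes holds the sterol response element. So do *ERG1*, *ERG6*, *ERG8*, *ERG13*, *ERG28* and *CYB5*, which ranked lower there, while *ERG11*, next in order, has no match. *SUT1* had the widest range of all members over the 24 libraries, 10.4 times from lowest to highest, ahead of *ARE2* (9.32 times) and *ERG3* (8.64 times).

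**Figure D1:**
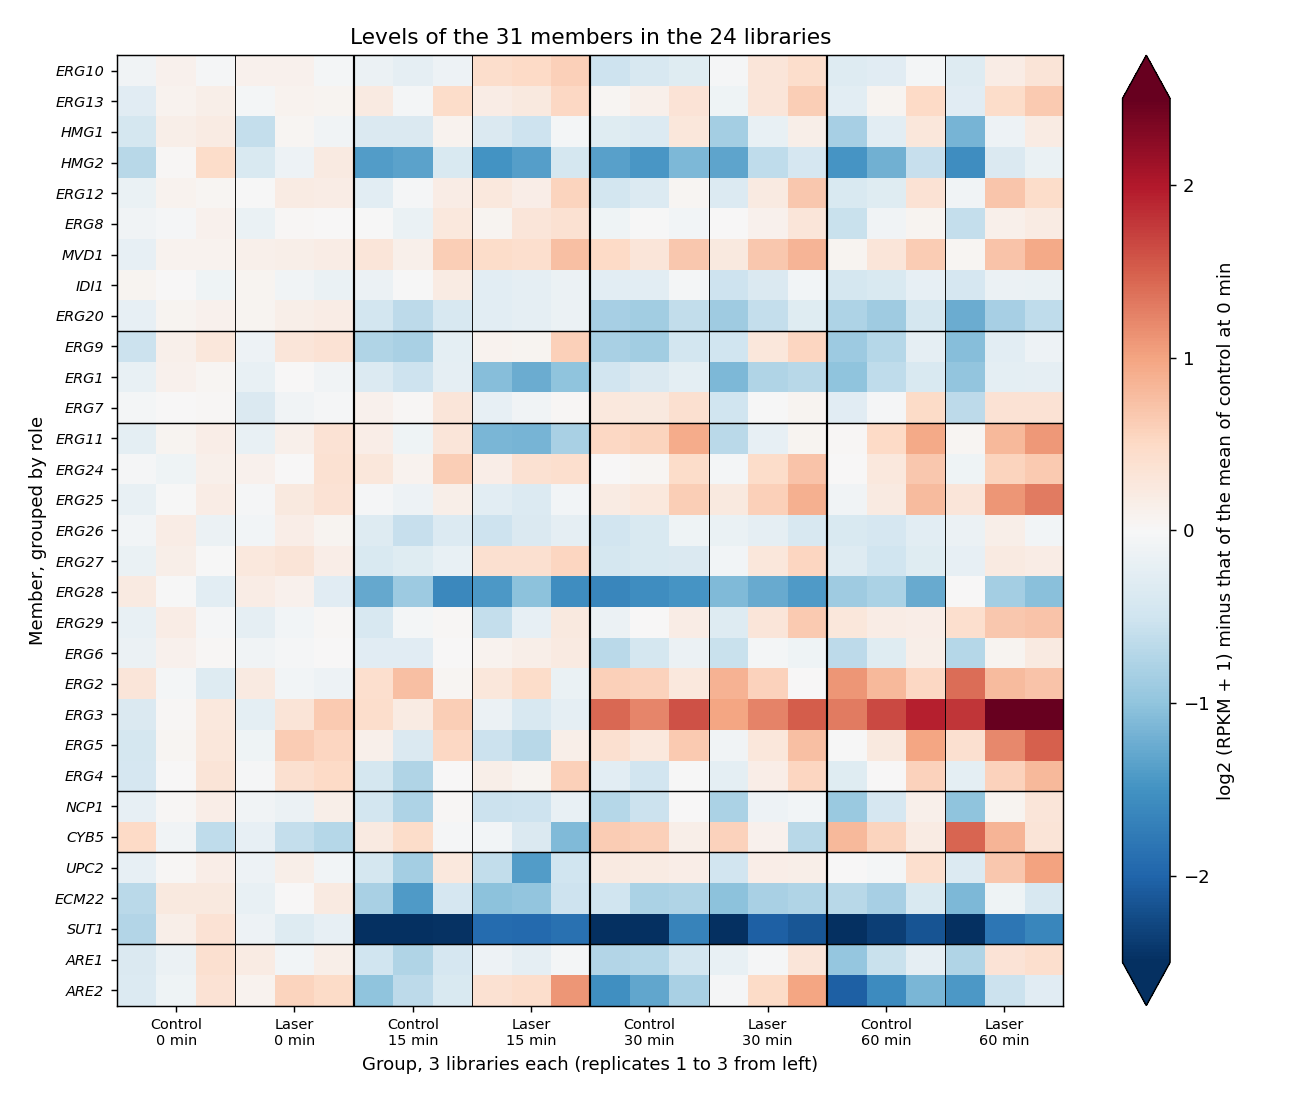
Level of each member (rows, grouped by role) in each of the 24 libraries (columns, 3 per group), as log2(RPKM + 1) minus that of the mean of Control at T0; colours end at 2.5 in either direction. *SUT1* is lower in all libraries from T15 on, *ERG3* is highest in Laser at T60, and *ERG11* is lowest in Laser at T15.

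Members passed in both directions at T15, and the share that was higher was no larger than among all genes. In Laser cells 6 members were higher, *ERG10*, *ERG9*, *ERG27*, *ERG4*, *SUT1* and *ARE2*, and 3 were lower, *ERG1*, *ERG11* and *ERG3*, at a Benjamini-Hochberg adjusted p under 0.05 (limma on log2(RPKM + 1), 3 against 3 libraries). Of all 5887 genes tested, 22.6% were higher and 4.26% lower by the same rule. Only *ARE2* and *ERG11* also passed a log2 fold change of 1, against 12.3% of all genes higher and 0.815% lower by at least that much. The median log2 change of the 31 members was -0.01 at T15, beside 0.29 for all genes. At T30 3 members were higher, *ERG10*, *ERG27* and *ARE2*, with 14.4% of genes higher in all, and only *ERG11* was lower, with 2.15% lower. At T0 and T60 no member passed, where 0.017% and 0.187% of genes were higher and 0% and 0.051% lower. By limma with no adjustment 0 members had a p under 0.05 at T0 and 2 did at T60. The share of all genes at this unadjusted cut was not counted, here or below.

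Each culture gave both portions, and libraries of the same replicate number were taken to share a culture, which their labels do not state. With this culture as a block in the fit more members passed, among a larger share of all genes. At T15 10 were higher and 5 lower (41.2% and 12.5% of genes), and at T30 5 and 3 (24% and 5.91%). At T60 6 were higher and none lower (9.36% and 3.62%), and at T0 none passed (1.04% and 0.476%). At T0 6 members had an unadjusted p under 0.05 with the block, a cut at which all genes were not counted. The median of all genes depends on the scaling of the libraries. It lay at 0.29, 0.15 and 0.11 at T15, T30 and T60, and at -0.02, -0.03 and 0.01 after libraries were scaled by the median ratio of their genes. Of the genes that passed at T15, 84.1% were higher, and 52.8% after scaling, while at T30 these shares were 87% and 62.8%, and at T60 78.6% and 52.5%. With this scaling 3 members were higher at T15 (*ERG9*, *ERG27* and *ARE2*) and 8 lower (*ERG1*, *ERG11*, *ERG25*, *ERG3*, *ERG5*, *ERG7*, *HMG1* and *IDI1*). Among all 5887 genes tested, 870 were higher and 778 lower with this scaling. Relative to the median of all genes, the changes of the members that passed at T15 were 0.39 for *ERG10*, 0.58 for *ERG9*, 0.44 for *ERG27*, 0.38 for *ERG4*, 0.40 for *SUT1* and 1.03 for *ARE2*, and -1.04 for *ERG1*, -1.45 for *ERG11* and -0.97 for *ERG3*. At T30 they were 0.50 for *ERG10*, 0.49 for *ERG27*, 1.54 for *ARE2* and -1.09 for *ERG11*.

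**Figure D2:**
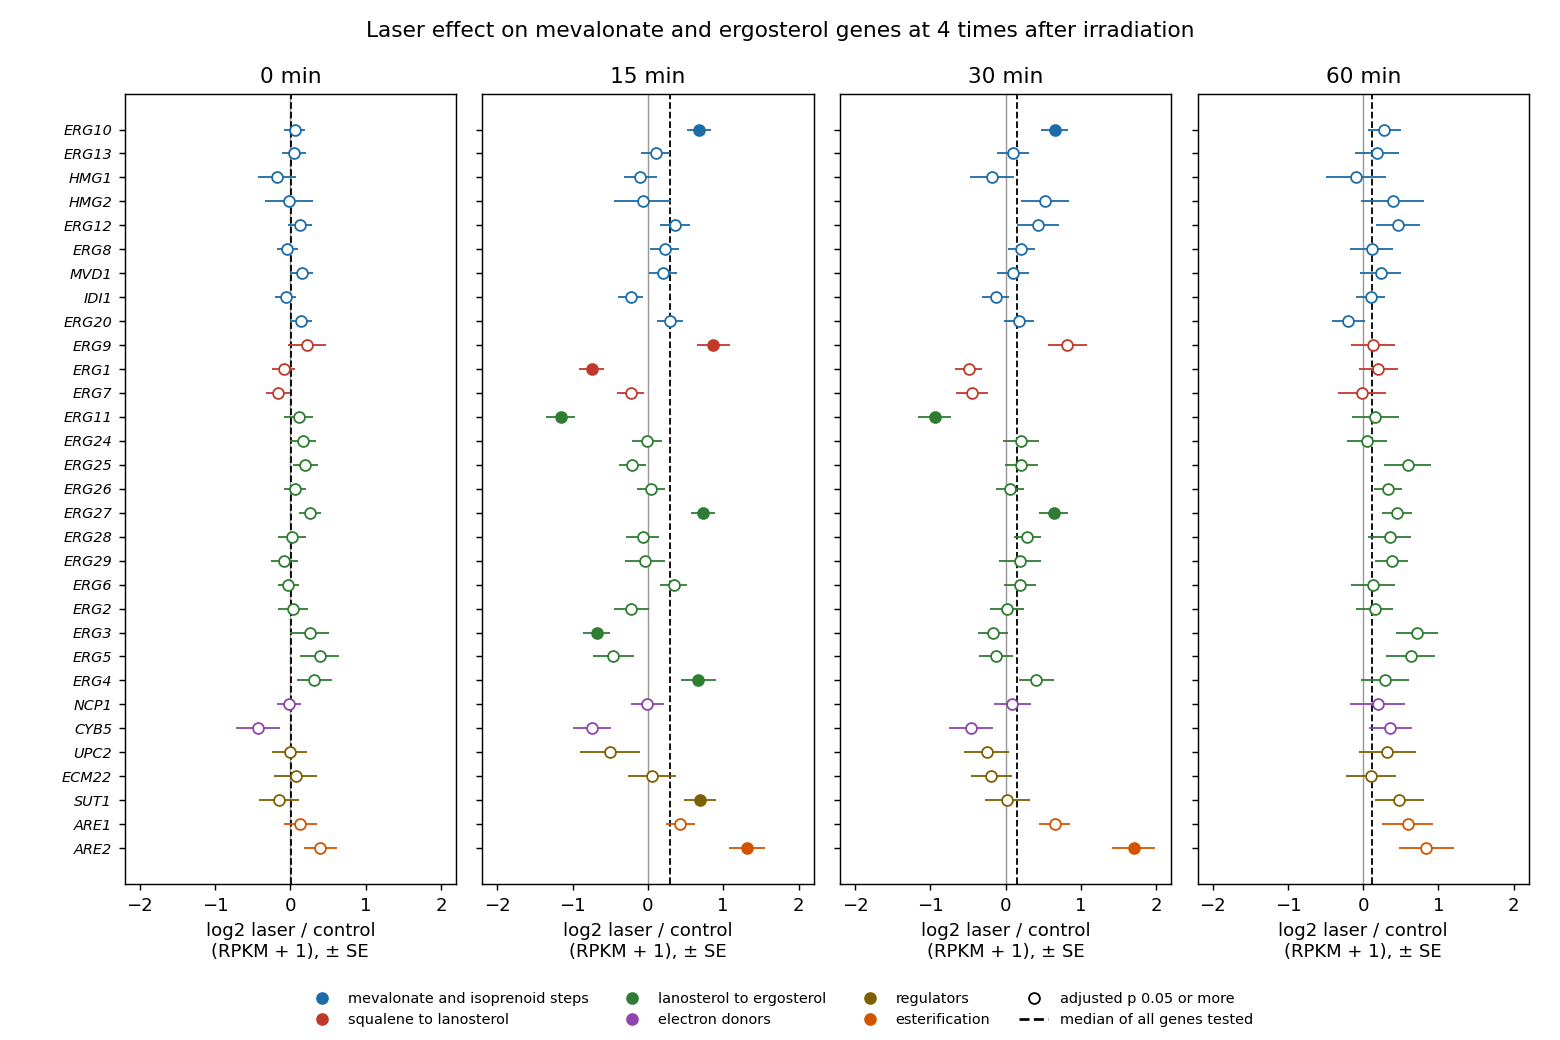
Log2 fold change of Laser over Control with its standard error for the 31 members at T0, T15, T30 and T60, coloured by role, with filled points for an adjusted p under 0.05 and a dashed line at the median of all genes tested. At T15 9 points are filled, 6 on the right and 3 on the left, and at T60 none is, with 28 of 31 members above 0.

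Of the 9 genes of the mevalonate steps, from *ERG10* to *ERG20*, 1 was higher in Laser at T15 and 1 at T30, beside 22.6% and 14.4% of all genes, and none was lower. In both cases it was *ERG10*, the acetoacetyl-CoA thiolase of the first step. Its level at T15 was 259, 246 and 265 RPKM in Control and 394, 407 and 439 in Laser. The groups did not overlap, and the log2 fold change was 0.68 ± 0.16 (SE, adjusted p = 0.0116). At T30 Control had 201, 218 and 234 RPKM and Laser 284, 359 and 390, again without overlap (log2 0.65 ± 0.18, adjusted p = 0.0343). The call at T15 was lost without Control replicate 1 (adjusted p = 0.0553) and with median-ratio scaling (0.0952). At T30 it held only when Laser replicate 1 was the library left out, and the adjusted p without any of the other libraries was 0.0528 to 0.168.

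The HMG-CoA reductases, which set the pace of the mevalonate steps, did not pass between Laser and Control at any time in the fit of all libraries, with or without the block. *HMG1* was lower at T15 with median-ratio scaling (-0.42, adjusted p = 0.0497), and *HMG2* was higher at T30 without Laser replicate 1 (0.78, adjusted p = 0.0381). *HMG1* had 32.4, 32.3 and 44.4 RPKM in Control and 32.2, 28.8 and 40.4 in Laser at T15. *HMG2*, which encodes the isozyme that is degraded when sterols are plentiful, had 8.17, 8.58 and 17.7 against 7.65, 8.29 and 16.8. Both portions had held more *HMG2* at T0, with 13.9, 23.7 and 32.1 RPKM in Control and 17.5, 21.2 and 27.2 in Laser. The fall of *HMG2* from T0 to T15 passed only with the culture block (Control log2 -0.96 ± 0.39, adjusted p = 0.0682 without and 0.00127 with the block; Laser -1.01 ± 0.39, 0.103 and 0.00178). The ratio of *HMG1* to *HMG2* within a library overlapped between the portions at T0 and T15. It was 1.5 to 2.19 in Control and 1.45 to 2.04 in Laser at T0, and 2.51 to 3.97 and 2.41 to 4.21 at T15. At T30 it was 3.95 to 4.98 in Control and 2.5 to 2.69 in Laser, and at T60 3.01 to 3.66 and 2.13 to 2.48. The portions separated in the ratio at these later times although neither gene passed. How often other pairs of genes separate in this way was not counted. Mevalonate kinase (*ERG12*) and *ERG20* were higher at T15 only with the block. *ERG13*, *ERG8*, *MVD1* and *IDI1* lay between -0.23 and 0.22 at T15 on the log2 scale. None of these 4 passed between Laser and Control at any time in the fit of all libraries, with or without the block. With median-ratio scaling *IDI1* was lower at T15.

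In the branch from farnesyl diphosphate to lanosterol, Laser and Control differed in opposite directions at T15. *ERG9*, the squalene synthase (R64 chromosome VIII, 484845 to 486179), had 111, 107 and 159 RPKM in Control at T15 and 202, 200 and 288 in Laser. All Laser values lay above all Control values (log2 0.87 ± 0.22, adjusted p = 0.0136). *ERG1*, the squalene epoxidase that follows it and needs oxygen (chromosome VII, 846933 to 848423), had 396, 351 and 430 RPKM in Control and 239, 212 and 249 in Laser, without overlap in the other direction (-0.75 ± 0.17, adjusted p = 0.00975). The call of *ERG9* was lost without Control replicate 1 (0.0624) or Control replicate 2 (0.0513), while *ERG1* passed without any single library. At T30 *ERG9* had 108, 103 and 137 RPKM in Control and 134, 230 and 277 in Laser, where Laser replicate 1 lay within the range of Control. The log2 change was 0.82 ± 0.26, with an adjusted p of 0.0551 and of 0.000216 with the block, and 1.13 without Laser replicate 1. *ERG1* stayed below Control at T30, with 357, 389 and 421 RPKM against 229, 298 and 309, and passed with the block (-0.49 ± 0.18, adjusted p = 0.104 without and 0.0148 with it). Lanosterol synthase (*ERG7*) had 81.0, 80.5 and 89.1 RPKM in Control and 47.5, 67.0 and 70.6 in Laser at T30, without overlap, but did not pass in either fit (adjusted p = 0.18 and 0.0549).

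*ERG11* lay furthest below Control of the members at T15 and T30. It encodes the lanosterol demethylase, a heme enzyme and the target of azole drugs (chromosome VIII, 120091 to 121683). At T0 Control had 229, 283 and 303 RPKM and Laser 239, 298 and 347, which overlap. At T15 Control stood at 305, 252 and 334 and Laser at 122, 120 and 154 (log2 -1.16 ± 0.19, adjusted p = 0.00121). Every Laser library was below every Control library. At T30 the values were 388, 397 and 518 in Control and 169, 235 and 285 in Laser (-0.94 ± 0.22, adjusted p = 0.0159). By T60 they were 278, 383 and 524 in Control and 279, 478 and 579 in Laser (0.16 ± 0.31, adjusted p = 0.999), so that the groups overlapped again. The call at T15 held without each library in turn, with adjusted p up to 0.00786, and that at T30 was lost without Control replicate 3 (0.0582) or Laser replicate 2 (0.0571).

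In *ERG11* the laser effect also changed between T0 and T15 by the interaction of treatment and time over all 24 libraries (log2 -1.27 ± 0.36, adjusted p = 0.0449). It was the only member to pass that test, where 0.293% of genes were lower and 4.6% higher. The call was lost without 9 of the 12 libraries concerned, each taken alone, with adjusted p from 0.06 to 0.111, and held without Laser T0 replicate 1, Control T15 replicate 2 or Laser T15 replicate 3. The change itself lay between -1.42 and -1.15 in these 12 fits. With the culture block the adjusted p was 0.00038, and 7 members passed, 3 higher (*ERG10*, *ERG9* and *ARE2*, beside 16.2% of genes) and 4 lower (*ERG1*, *ERG11*, *ERG3* and *ERG5*, beside 2.83%). The change from T15 to T30 passed for no member in either fit, with 0 members at an unadjusted p under 0.05 and 2 with the block. By the adjusted p 0.195% of all genes were higher and 0.342% lower, and 0.797% and 0.911% with the block. From T30 to T60 no member passed without the block (0.26% of genes higher and 2.51% lower), and 3 had an unadjusted p under 0.05. With the block *ERG1*, *ERG11*, *ERG3* and *CYB5* rose in Laser relative to Control and *ARE2* fell (1.32% and 7.83% of genes).

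**Figure D3:**
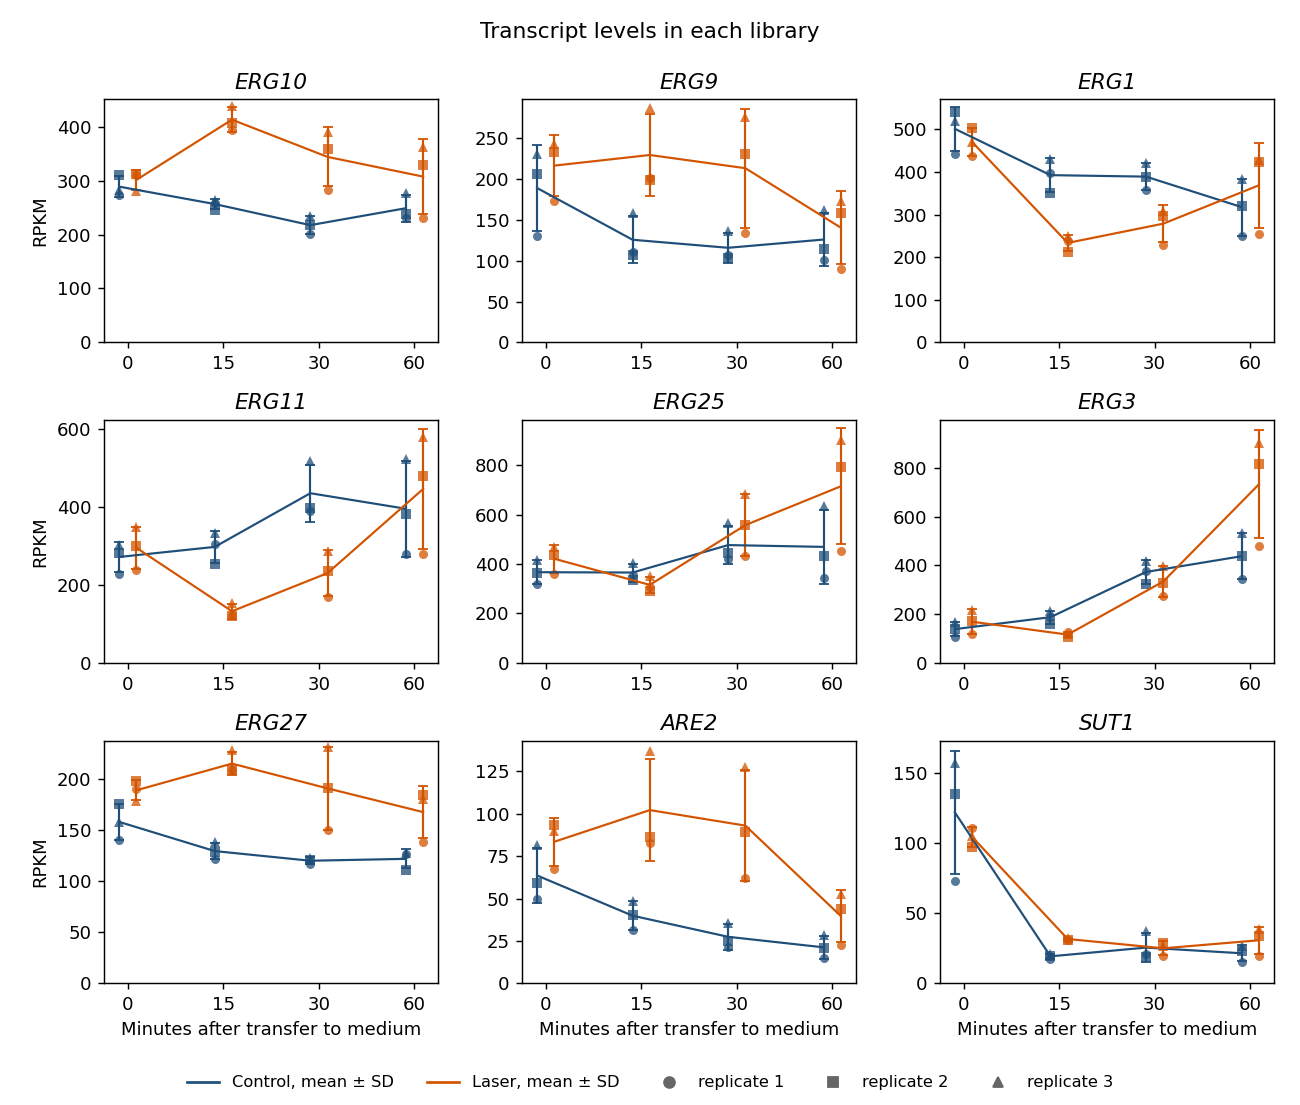
RPKM of 9 members in each library against minutes after transfer, for Control (blue) and Laser (orange), with the mean and SD of 3 libraries and a symbol for each replicate. *ERG1*, *ERG11* and *ERG3* of Laser lie under Control at T15, and *ERG10*, *ERG9*, *ERG27* and *ARE2* lie over it.

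*ERG3* encodes the sterol desaturase, an iron enzyme that uses oxygen. It had 107, 141 and 167 RPKM in Control at T0 and 117, 172 and 217 in Laser. At T15 Control had 189, 161 and 213 and Laser 125, 104 and 119, without overlap (log2 -0.68 ± 0.18, adjusted p = 0.0164). Without Control replicate 1 or Laser replicate 2 the adjusted p was 0.0681 and 0.0685. At T30 the groups overlapped, with 375, 324 and 420 RPKM in Control and 274, 328 and 399 in Laser. At T60 Laser had 481, 815 and 901 against 343, 438 and 532 in Control, higher in each culture (0.71 ± 0.28, adjusted p = 0.484, and 3.11e-05 with the block). Without Laser replicate 1, the lowest of the 3, the change was 0.99 and passed without the block. *ERG3* also rose within each portion. From T15 to T30 it was the only member to pass, in Control by 0.99 ± 0.25 (adjusted p = 0.0185, lost without Control T15 replicate 2, T30 replicate 1 or T30 replicate 3, 0.0726 to 0.102) and in Laser by 1.51 ± 0.25 (adjusted p = 0.00188). Of all genes, 0.96% rose and 3.86% fell in Control in this interval, and 0.423% and 2.25% in Laser. From T30 to T60 no member passed in Control (1 at an unadjusted p under 0.05), where 0.521% of genes rose and 0.504% fell by the adjusted p. In Laser *ERG3* rose again from T30 to T60, by 1.10 ± 0.25 (adjusted p = 0.00458).

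*ERG25* and *ERG5*, the other oxygen-using enzymes of the late steps, followed a like course without passing the test at T15. *ERG25*, an iron enzyme that oxidises the methyl groups of the sterol ring, had 357, 334 and 405 RPKM in Control and 306, 289 and 352 in Laser at T15, and 343, 431 and 633 against 451, 793 and 900 at T60. Its log2 change was -0.21 ± 0.18 at T15 (adjusted p = 0.401, and 0.02 with median-ratio scaling) and 0.59 ± 0.31 at T60 (0.707, and 0.000755 with the block). *ERG5*, a heme enzyme that desaturates the side chain, had 69.8, 49.5 and 92.4 RPKM against 43.5, 39.3 and 70.6 at T15, and 63.3, 76.5 and 127 against 85.2, 149 and 181 at T60. With the block it was lower at T15 (-0.46 ± 0.27, adjusted p = 0.231 without and 0.0112 with it, and 0.0453 without the block when Laser replicate 3 was left out) and higher at T60 (0.63 ± 0.33, 0.723 and 0.00111).

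Other members of the late pathway were higher in Laser than in Control. *ERG27*, the keto reductase that completes removal of the methyl groups at the ring, was the only member whose Laser values lay above all Control values at each of the 4 times. Of all genes, 5.42%, 34.2%, 24.4% and 9.68% did so at T0, T15, T30 and T60, and the share at all 4 times was not counted. At T15 *ERG27* had 122, 129 and 138 RPKM in Control and 208, 209 and 228 in Laser (log2 0.73 ± 0.16, adjusted p = 0.00781), and it passed without each library in turn. At T30 it had 116, 121 and 123 against 150, 192 and 231 (0.64 ± 0.19, adjusted p = 0.0462), a call that held only without Laser replicate 1 and was otherwise lost (0.0864 to 0.18). At T60 it had 126, 111 and 128 against 138, 184 and 181 (0.45 ± 0.20, adjusted p = 0.608, and 0.0258 with the block). *ERG4*, the reductase of the final step, had 105, 84.5 and 143 RPKM in Control and 159, 149 and 217 in Laser at T15 (0.67 ± 0.23, adjusted p = 0.0467). This call held without Control replicate 3 or Laser replicate 2 and was lost without any of the other 4 libraries (0.0768 to 0.159), and with scaling (0.148). The methyltransferase *ERG6* was higher at T15 only with the block (0.34 ± 0.18, adjusted p = 0.175 and 0.0177). *ERG24*, *ERG26*, *ERG28*, *ERG29* and *ERG2* did not pass between Laser and Control at any time in either fit.

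*ERG28*, a membrane scaffold that holds enzymes of the late steps together, instead fell from T0 to T15 in both portions. Later *ERG28* had means of 62.7 RPKM at T30 and 94.8 at T60 in Control, and of 77.3 and 127 in Laser. It had 218, 185 and 155 RPKM in Control and 211, 201 and 153 in Laser at T0. At T15 it had 76.0, 98.2 and 60.4 in Control and 68.2, 90.8 and 62.8 in Laser. The fall was -1.26 ± 0.24 in Control (adjusted p = 0.000532, and 0.0526 with median-ratio scaling) and -1.34 ± 0.24 in Laser (0.000518). Over this interval 5 members fell in Control, *ERG20*, *ERG26*, *ERG28*, *ECM22* and *SUT1*, among 24.6% of all genes, and no member rose, among 4.93%. The median of all genes in this interval was -0.33, and -0.02 with scaling. In Laser 4 fell, *ERG1*, *ERG11*, *ERG28* and *SUT1*, among 6.74%, and none rose, among 5.4%. The calls of *ERG20* (-0.50), *ERG26* (-0.40) and *ECM22* (-0.83) in Control were lost without Control T0 replicate 2 or 3 or without T15 replicate 1 or 2 (adjusted p from 0.0554 to 0.211), *ERG26* also without T15 replicate 3 (0.053), and all 3 with scaling.

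With the culture block more members changed over time in each portion. In Control 2 rose and 10 fell from T0 to T15, beside 9.27% and 37.9% of all genes, 2 rose and 1 fell from T15 to T30 (2.26% and 9%), and none did from T30 to T60 (2.07% and 1.74%). The 2 that rose first were *ERG2* and *ERG3*, and *ERG11* and *ERG3* rose in the second interval. In Laser 1 rose and 11 fell from T0 to T15 (9.79% and 13.4%), 5 rose and 1 fell from T15 to T30 (2.25% and 10.7%), and 6 rose and 2 fell from T30 to T60 (4.88% and 17.8%). The 5 that rose from T15 to T30 in Laser were *ERG11*, *ERG25*, *ERG3*, *ERG5* and *CYB5*, against *ERG20*, which fell.

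Among the electron donors, NCP1 feeds the heme enzymes and the epoxidase, and CYB5 (cytochrome b5, itself a heme protein) feeds the oxidases and desaturases. *NCP1* stayed between -0.02 and 0.19 on the log2 scale at the 4 times. *CYB5* had 180, 212 and 151 RPKM in Control at T15 and 146, 119 and 70.6 in Laser, which do not overlap (-0.74 ± 0.25, adjusted p = 0.0514, and 0.00643 with the block). At T30 it had 238, 232 and 169 against 230, 164 and 94.7 (-0.46 ± 0.29, 0.358 and 0.0321). At T60 it had 270, 226 and 176 against 422, 279 and 192, higher in each culture and overlapping (0.36 ± 0.29, adjusted p = 0.944). Without the block *CYB5* passed at T15 when Control replicate 3 (-0.86, adjusted p = 0.0328) or Laser replicate 1 (-0.96, 0.0263) was left out, and at T30 without Laser replicate 1 (-0.75, 0.0408).

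Across roles, 5 members encode proteins that hold heme or iron, *ERG11*, *ERG5*, *ERG25*, *ERG3* and *CYB5*. Their median log2 change was 0.20 at T0, -0.68 at T15, -0.17 at T30 and 0.59 at T60, beside 0.01, 0.29, 0.15 and 0.11 for all genes. The other 26 members had medians of 0.04, 0.07, 0.19 and 0.21. All 5 were below 0 at T15, 2 of them past the test and 4 with the block, beside 4.26% and 12.5% of all genes lower. All 5 were above 0 at T60, as were 28 of the 31 members, with none past the test and 3 with the block, beside 0.187% and 9.36% of all genes higher. These signs were the same with median-ratio scaling, with medians of -1.01 at T15 and 0.49 at T60. The 5 enzymes that use oxygen, in which *ERG1* takes the place of *CYB5*, had the same medians at T15 and T60, with 3 past the test at T15. Within Laser cells the 5 heme or iron genes changed by a median of -0.50 from T0 to T15, 0.77 from T15 to T30 and 0.88 from T30 to T60, and all 5 had the same sign in each interval, except that with scaling 4 of 5 were below 0 from T0 to T15. In the last interval *ERG11* rose by 0.92 ± 0.26 (adjusted p = 0.0223, lost without Laser T30 replicate 1 or 2 or T60 replicate 2 or 3, 0.0605 to 0.111) and *ERG3* rose, among 1.84% of genes. The 9 members with a sterol response element had medians of -0.21 at T15 and 0.20 at T60, and the 22 without had 0.04 and 0.29. The lists of heme or iron proteins and of enzymes that use oxygen were chosen with earlier results of these data known. Their medians and signs are given as a description. Whether heme, iron or oxygen had a part in these changes was not tested.

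The opposite courses of *ERG9* or *ERG10* and of *ERG11* show in ratios within a library, which no scaling of libraries alters. The ratio of *ERG9* to *ERG11* was 0.571 to 0.764 in Control and 0.701 to 0.782 in Laser at T0. At T15 it was 0.365 to 0.476 in Control and 1.65 to 1.86 in Laser, and at T30 0.260 to 0.277 and 0.790 to 0.979. At T60 the ranges met again, at 0.300 to 0.361 and 0.299 to 0.331. The ratio of *ERG10* to *ERG11* took the same course, with 0.793 to 0.976 against 2.84 to 3.39 at T15 and 0.531 to 0.829 against 0.627 to 0.825 at T60. These genes were selected for the ratio after their values were seen, and the ratios are given as a description.

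**Figure D4:**
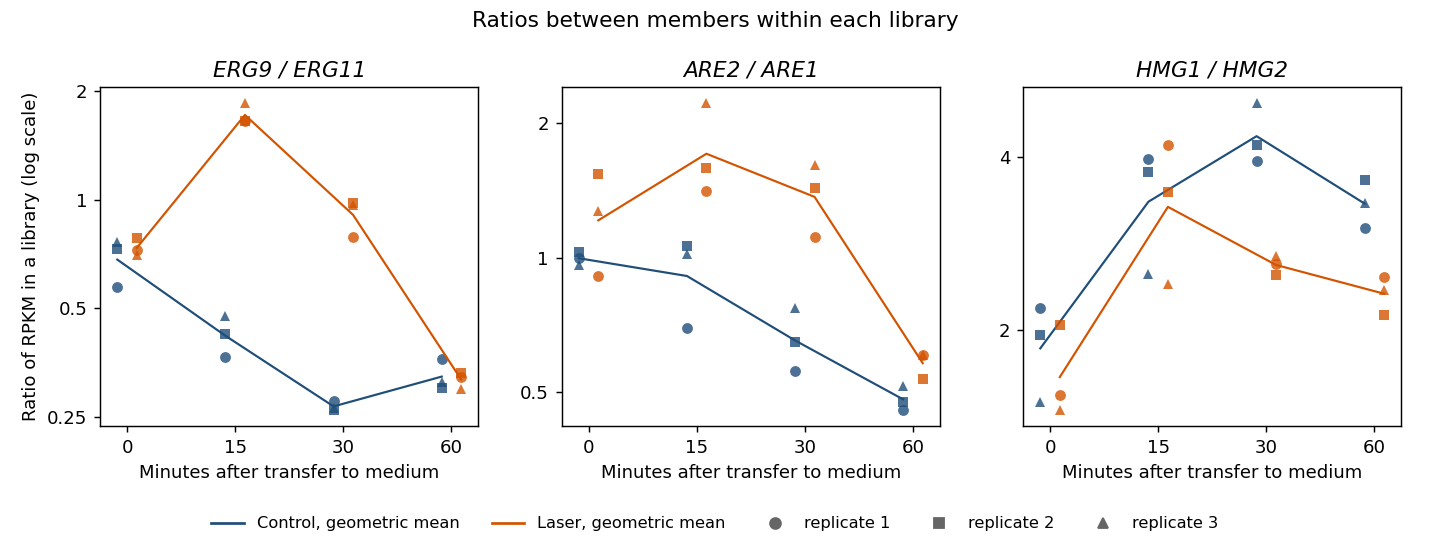
Ratio of RPKM values of 2 members within each library, on a log scale, against minutes after transfer; lines join the geometric means of 3 libraries of Control (blue) and Laser (orange). For *ERG9* / *ERG11* the portions separate at T15 (0.365 to 0.476 against 1.65 to 1.86) and meet at T60.

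Of the regulators, *UPC2* and *ECM22* stayed low and did not pass between Laser and Control in either fit. *UPC2* had 6.72, 4.79 and 11.6 RPKM in Control and 5.81, 2.96 and 6.39 in Laser at T15, and 9.57, 9.12 and 13.0 against 7.26, 15.7 and 20 at T60. *ECM22* had 12.1, 23.6 and 23.6 against 17.1, 20 and 23.3 at T0, and 10.8, 6.82 and 14.5 against 9.25, 9.50 and 13.5 at T15. Both were lower in Laser at T15 than at T0 only with the block (adjusted p = 0.0374 and 0.0155). *SUT1*, a factor that promotes sterol uptake and is known for its role in anaerobic growth, fell most of all members after transfer. It had 73.0, 135 and 157 RPKM in Control and 111, 97.2 and 105 in Laser at T0, and 17.2, 19.6 and 21.1 against 31.3, 31.1 and 32.6 at T15. The fall was -2.53 ± 0.29 in Control (adjusted p = 2.14e-06) and -1.69 ± 0.29 in Laser (0.000399), and the difference between these falls did not pass (0.84 ± 0.41, adjusted p = 0.267). At T15 *SUT1* was higher in Laser by 0.69 ± 0.21 (adjusted p = 0.0318), a call that held only without Control replicate 3 (0.0704 to 0.139 without each of the other libraries) and was lost with scaling (0.0739).

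*ARE2* had the largest excess of Laser over Control among the members at T15 and T30. It encodes the main acyl-CoA:sterol acyltransferase, which esterifies sterols for storage in lipid droplets (chromosome XIV, 665339 to 667267). In Control its mean was lower at each later time, from 50, 59.2 and 81.8 RPKM at T0 to 31.2, 40.2 and 48.3 at T15, 21.4, 25.2 and 35.9 at T30 and 14.7, 20.8 and 28.4 at T60. No single one of these intervals passed in Control without the block (adjusted p = 0.125 from T0 to T15 and 0.529 from T15 to T30), and those 2 passed with it (0.00137 and 0.0218). Laser held 67.3, 93.5 and 89.6 RPKM at T0, 82.9, 86.6 and 137 at T15, 62.3, 89.4 and 127 at T30, and 22.8, 43.7 and 52.4 at T60. All Laser values lay above all Control values at T15 (log2 1.32 ± 0.24, adjusted p = 0.00255) and at T30 (1.70 ± 0.29, adjusted p = 0.00266). Both calls held without each library in turn (adjusted p up to 0.0144 and 0.0171) and with scaling (0.00643 and 0.00291). At T60 the ranges overlapped, though each culture was higher in Laser (0.84 ± 0.36, adjusted p = 0.57, and 0.000369 with the block). Within Laser *ARE2* fell from T30 to T60 by 1.23 on the log2 scale (SE 0.32, adjusted p = 0.0134), the only member to do so, among 8.74% of genes. That call was lost without Laser T30 replicate 3 or T60 replicate 1 (0.0984 and 0.115).

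*ARE1*, the second acyltransferase, differed less between the portions. It had 44.9, 37.8 and 47.4 RPKM in Control and 58.9, 54.5 and 61.8 in Laser at T15, and 38.4, 38.8 and 46.6 against 56.2, 62.5 and 79.1 at T30. The groups did not overlap at either time, and in the fit of all libraries *ARE1* passed only with the block (0.43 ± 0.19, adjusted p = 0.111 and 0.00989 at T15, 0.65 ± 0.21, 0.059 and 0.00724 at T30, and 0.59 ± 0.34, 0.789 and 0.00734 at T60). Without the block it passed at T30 when Laser replicate 1 was left out (0.76, adjusted p = 0.0119). The ratio of *ARE2* to *ARE1* was 0.961 to 1.03 in Control at T0 and fell to 0.455 to 0.516 at T60. In Laser it was 1.41 to 2.22 at T15, above the 0.696 to 1.06 of Control, and 0.535 to 0.606 at T60.

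Values that did not overlap between Laser and Control were found for 9 members above and 5 below at T15, beside 34.2% and 9.22% of genes. Those below were *ERG1*, *ERG3*, *ERG11*, *IDI1* and *CYB5*. At T30 6 members lay above and 3 below (24.4% and 7.29% of genes), at T0 2 above and none below (5.42% and 5.12%), and at T60 3 above and none below (9.68% and 3.16%). The T30 counts rest on Laser replicate 1, which had the lowest median RPKM of its group (27.1, against 35.8 and 40.2). Without it 10 members passed at T30 in place of 4, 8 higher (*ARE1*, *ARE2*, *ERG10*, *ERG12*, *ERG27*, *ERG4*, *ERG9* and *HMG2*) and 2 lower (*CYB5* and *ERG11*). Without Control replicate 3 or Laser replicate 2 only *ARE2* passed. At T15 the count was 4 without Control replicate 1 (*ARE2*, *ERG27*, *ERG1* and *ERG11*) and 10 without Control replicate 3. The share of all genes that passed without these libraries was not counted, so these counts describe the members only.

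Genes around the pathway were read from lists by function. Of 15 tested genes of sterol uptake and transport 4 were higher in Laser at T15 and 3 at T30, beside 22.6% and 14.4% of all genes, with medians of 0.48 and 0.5. *LAM5*, of a family of sterol transfer proteins at membrane contacts, had 12.8, 10.5 and 19.6 RPKM in Control and 31.5, 32.3 and 42.1 in Laser at T15 (1.28 ± 0.27, adjusted p = 0.0056), and its relative *LAM6* changed by 0.90 ± 0.22 (0.013). *NPC2*, which carries sterol out of the vacuole, changed by 0.85 ± 0.21 (0.0123) and the oxysterol-binding protein gene *OSH2* by 1.03 ± 0.28 (0.0208). *LAM5*, *NPC2* and *LAM6* passed again at T30, at 1.46, 1.05 and 1.04. Of 7 genes for the turnover of HMG-CoA reductase 3 were higher at T15, the ubiquitin ligase *HRD1* (0.90), its conjugating enzyme *UBC7* (0.58) and *NSG2* (0.98), which binds the reductase and holds it back from degradation. *NSG2* had 92.0, 125 and 115 RPKM in Control and 207, 214 and 231 in Laser. Of 11 genes that use isoprenoids *COQ1* (0.82) and *NUS1* (0.64), which make the chains of ubiquinone and dolichol, were higher at T15. Without the block none of these 3 lists had a gene lower in Laser at T15 or T30. With it 8 of the transport genes, 6 of the turnover genes and 7 of the isoprenoid genes were higher at T15, beside 41.2% of all genes higher, and 1 isoprenoid gene, *RER2*, was lower, beside 12.5%. *RER2* was named after its values were seen.

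The 5 genes for hydrolysis and acetylation of sterols had none past the test in Laser against Control at any of the 4 times without the block. With it *ATF2*, which acetylates sterols, was lower at T30 (-0.72 ± 0.26, adjusted p = 0.0976 without and 0.039 with the block), with 23.6, 21.7 and 20.6 RPKM in Control and 10.7, 12.3 and 16.6 in Laser. Within Laser *ATF2* rose from T30 to T60 (1.05 ± 0.22, adjusted p = 0.00303). Of the 5 heme, oxygen and sterol regulators, *DAP1*, a heme protein that supports Erg11, was higher at T30 (0.98 ± 0.25, adjusted p = 0.0244), with 29.9, 40.0 and 46.3 RPKM in Control and 99.3, 77.8 and 56.9 in Laser, and no overlap. *ROX1*, the repressor of anaerobic genes, fell from T0 to T15 in both portions, by 2.96 on the log2 scale in Control (adjusted p = 2.06e-07) and by 3.62 in Laser (1.74e-08). It had 419, 507 and 644 RPKM in Control and 1126, 843 and 983 in Laser at T0, without overlap (0.92 ± 0.21, adjusted p = 0.286, and 0.0492 with the block). At T15 it had 69.1, 45.7 and 87.5 in Control and 72.6, 72.6 and 91.1 in Laser. Its fall and that of *SUT1* were the largest among the genes named here.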

How the data were processed

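RNA was sequenced from 24 libraries, 3 per group, made by the authors with a stranded, poly(A)-selecting kit. Per the authors, reads were assembled to the S288C reference in SeqMan NGen and expression values computed in ArrayStar. The deposited values are RPKM, in 4 tables of 1 time point each, where a gene without reads carries 0.021. The build is not given in the sources used here, nor is the use of strand in counting, so overlapping antisense reads may be shared. The tables' own fold changes, scores and p-values were not used.

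Depth was recovered from RPKM steps of genes with few reads. Between 92.5% and 96.6% of low values per library lay within 0.08 of whole reads. Each depth was picked to make this share high, and the 16% expected by chance holds only for a depth fixed beforehand. RPKM times length gave back nearly all reads of each library, so values were compared across tables. At each time Laser and Control were compared by limma 3.58.1 (R 4.3.3) with a variance trend on log2(RPKM + 1), for genes with at least 1 RPKM in at least 3 libraries, and p-values were adjusted by Benjamini-Hochberg over all genes tested. Fold changes on this scale understate those of low genes. Changes over time and interactions came from 1 fit of all 24 libraries. A gene passed at an adjusted p under 0.05 and was also counted at a log2 change of at least 1. The replicate number, taken to mark the culture that was split into both portions, was added as a block in an alternative fit. Deviations of same-numbered Control and Laser libraries from their group means correlated at -0.02 to 0.467, and over all 84 same-numbered pairs the median was 0.247. Other alternatives were a pseudocount of 0.1, no filter, median-ratio scaling, noncoding genes left out, and each library left out. The fits were tested on simulated data. Of gene names, 6074 matched the R64 annotation of RefSeq, which gave positions and promoters. Members and lists were chosen with earlier results of these data known. All 31 members could be named, and up to 4 genes of each other list by smallest p. Tables were made in Python 3.11.15 with pandas 2.3.3 and plots with Matplotlib 3.10.9.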

Additional observations from a re-analysis of the deposited data

Results flagged for a closer look

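The effect of the laser on *ERG11* differed between T0 and T15 by the test of the interaction (log2 -1.27 ± 0.36, limma, adjusted p = 0.0449). This call was lost without most of the libraries concerned, each left out alone, with adjusted p up to 0.111. The gene was 0.11 ± 0.19 above Control at T0 and 1.16 below it at T15 on the log2 scale, with the change below 0 in all 3 cultures at T15.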

How the results depend on the processing

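Counts of members past the test moved with the culture block, with scaling and with the library left out. With the block the counts were 15 in place of 9 at T15, 8 in place of 4 at T30 and 6 in place of 0 at T60. Over time the block gave 12 in place of 5 from T0 to T15, and 3 in place of 1 from T15 to T30 in Control. In Laser it gave 12 in place of 4, 6 in place of 1 and 8 in place of 3 over the 3 intervals. For the change of the laser effect it gave 7 in place of 1 from T0 to T15 and 5 in place of 0 from T30 to T60. The genes that passed without the block also passed with it, 28 of 28.

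With median-ratio scaling the counts were 11 at T15 and 8 at T30, 9 and 3 in the first 2 intervals of Control, 12, 6 and 7 in the 3 intervals of Laser, and 5 and 3 for the changes of the laser effect from T0 to T15 and from T30 to T60. Among all genes with scaling, 870 were higher and 778 lower at T15 (of 5887), and 806 and 477 at T30 (of 5871). Of 6146 genes, 854 rose and 986 fell, then 155 and 320, in these Control intervals. In Laser they were 637 and 615, 106 and 188, and 297 and 570. For the 2 changes of the laser effect they were 299 and 176, and 101 and 229. Of the 28 calls, 21 held with scaling, 26 with a pseudocount of 0.1 and 26 without the filter. All 9 calls checked without noncoding genes held, and no direction reversed under any of these settings.

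Without each library in turn, the count ranged from 4 to 10 at T15, 1 to 10 at T30, 0 to 1 at T60 and was 0 at T0. In Control it ranged from 2 to 7, 0 to 1 and 0 to 0 over the 3 intervals. In Laser it ranged from 4 to 5, 1 to 1 and 2 to 4. For the change of the laser effect it was 0 to 1, 0 to 0 and 0 to 2. Of 174 single calls refitted in this way, 57 missed the threshold, with their direction kept. The fits then hold fewer samples, and the share of all genes that passed in them was not counted. Read numbers were lowest for *UPC2*, with 29 reads in the lowest library and a median of 100, and the size of change that this depth can show was not measured.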

Other observations

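Libraries of different replicate number differed by gene length among the members. Whether this came from the cultures or from the preparation of RNA and libraries was not tested. The median over the 8 groups of log2 replicate 3 over replicate 1 was -0.82 for *CYB5* (363 bp), -0.52 for *ERG2* (669 bp) and -0.35 for *ERG28* (447 bp), and above 0 for the other 28 members, from 0.09 for *ERG26* to 0.97 for *HMG2* (3138 bp). Over all genes, 1620 shorter than 750 bp had a median of -0.21, with 65.7% below 0, and 4237 longer ones had 0.42, with 9.16% below 0. The laser effect at T15 had a median of 0.31 in the shorter and 0.30 in the longer genes, and at T30 of 0.27 and 0.13.

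*ERG2* was among the 3 highest members at T60 in Laser although its laser effect stayed between 0.02 and 0.15 at T0, T30 and T60 and was -0.22 at T15. Its rise was shared by Control, from 344 ± 76.8 RPKM at T0 to 615 ± 126 at T60 (SD, n = 3), and no single interval of it passed in Control without the block.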
